A study of Sus scrofa with 23 samples.

Results

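Gene expression in the inner cell mass part of cloned porcine blastocysts was compared with that of in vivo fertilized blastocysts, and the genes that differed the same way in the 2 clone groups were taken as members. The part is called IT, because it held the inner cell mass (ICM) together with some trophectoderm (TE). The members were chosen by a fold rule on FPKM, which is fragments per kilobase of gene, scaled by the number of fragments in the library. A gene was compared when its FPKM was at least 1 in one of the 2 libraries of a comparison, and it was counted as higher or lower when log2(FPKM + 1) of the clone library differed by more than 1 from that of the in vivo library. Of 8603 genes in the table, 7003 were compared in both clone groups. Members were 1171 genes, of which 429 were higher in both clones (6.13% of genes compared) and 742 were lower in both (10.6%), and 6 genes lay past the fold in opposite directions (0.0857%). These shares are what the rule itself fixed.

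The IV-D IT library came from Duroc embryos conceived by artificial insemination and flushed from Duroc sows. The NT-D IT library came from embryos made by transfer of nuclei of ear fibroblasts of a Duroc boar, and the NT-LW IT library from nuclei of ear fibroblasts of a Laiwu boar. Each clone group rested on 1 donor cell line, and both donor boars were 1 year old. Recipient oocytes came from hybrid sows and were matured in vitro, and the cloned embryos were cultured in PZM3 medium at low oxygen. Clones were thus all male, IV-D embryos could be of both sexes, and the Duroc donor boar also sired the IV-D embryos. Each library pooled several embryos of normal appearance, and blastocysts were cut by hand into IT and a piece of TE alone. Nuclear transfer, the hybrid source of the oocyte, its in vitro maturation and in vitro culture went together in both clone groups. Their effects cannot be told apart here.

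There was 1 library per condition and therefore no replicate error and no test between groups. Depth was 19399318 fragments in IV-D IT, 21191191 in NT-D IT and 21503604 in NT-LW IT, within 14952784 to 22991067 over 23 libraries. Differences are given with values in single libraries, and intervals cover counting error only. Both clone libraries were set against the same IV-D IT library, so that a deviation of that library alone would put a gene in the same direction in both. Pearson's r of log10(FPKM + 1) over the 8603 genes was 0.98 between the clone IT libraries, and 0.932 (NT-D) and 0.934 (NT-LW) between each of them and IV-D IT. IV-D IT was nearer to the IV-D morula (0.956) than to the IV-D TE (0.914), whereas NT-D IT had 0.982 and NT-LW IT 0.979 with the TE of its own group. These are descriptions across genes, which are not independent.

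The ICM is the group of cells inside the blastocyst from which the epiblast, the founder of the embryo proper, and the hypoblast, the founder of the yolk sac lining, arise. The TE is the outer epithelium that pumps fluid into the cavity and forms the fetal part of the placenta. Epiblast cells are known for pluripotency factors such as NANOG, hypoblast cells for GATA6 and PDGFRA, and TE cells for GATA3 and the keratins KRT8 and KRT18. An IT piece that holds fewer ICM cells and one whose ICM cells hold less RNA of a gene give the same reading in pooled RNA, and cannot be told apart.

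The label of the IT libraries was checked against these markers. FPKM of NANOG, a core pluripotency factor, was 9.8 in IV-D IT, 5.0 in NT-D IT and 3.76 in NT-LW IT, and NANOG had 0 fragments in the TE library of each of the 3 groups. All 3 IT libraries thus held transcripts of ICM. KRT8, a keratin of simple epithelia, was at 626, 441 and 599.7 in the same order against 549, 735 and 1033 in the TE libraries, and KRT18, its partner, at 627, 532 and 834 against 582, 917 and 1593. The keratins were therefore no lower in IT than in TE of the IV-D group. GATA6, the hypoblast factor, was level among the IT libraries, at 37.7 in IV-D IT, 34 in NT-D IT and 37.4 in NT-LW IT. POU5F1, SOX2, SOX17, FOXA2 and CDX2 were not analysed here.

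**Figure D1:**
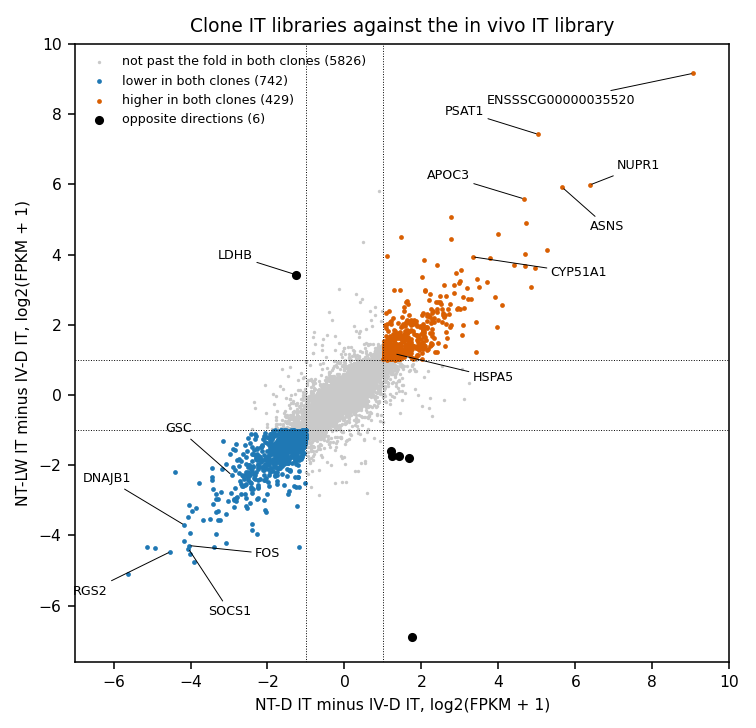
Difference in log2(FPKM + 1) from the IV-D IT library in NT-D IT (horizontal) and NT-LW IT (vertical) for the 7003 genes compared in both, 1 point per gene. Orange points are the 429 members higher in both clones, blue points the 742 lower in both, black points the 6 in opposite directions, and dotted lines mark differences of 1. Both axes share the IV-D IT library.

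In each clone alone, 672 genes were higher (9.47% of 7095) and 1093 lower (15.4%) in NT-D IT, and 617 were higher (8.7% of 7093) and 970 lower (13.7%) in NT-LW IT. The members made up 63.8% of the higher and 67.9% of the lower genes of NT-D, and 69.5% and 76.5% of those of NT-LW. Members that were higher had a median log2 difference of 1.58 in NT-D and 1.49 in NT-LW, and those that were lower -1.55 and -1.52, against -0.17 and -0.11 over all genes compared in both. Differences over 2 in both clones were seen in 80 higher and 124 lower members. The balance of the 2 directions depended on the scaling: 36.6% of members were higher without further scaling, 30.4% (359 higher, 821 lower) when libraries were set to the same sum, 47% (535 and 603) with median-ratio scaling, and 57.4% (459 and 341 of 5779 genes) when the median of each quintile of transcript GC content was taken off.

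Members near the limit show how sharp it is. CFAP96 was just inside on the higher side, with differences of 1.31 and 1.01, and HMGN4 just outside, with 1.21 and 1.0. TEAD4 was just inside on the lower side, with -1.51 and -1.0, and DEPDC1 just outside, with -1.16 and -1.0. Few fragments touched few members: 22 higher and 54 lower members had under 10 fragments in at least one of the 3 IT libraries.

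The IV-D IT library stood apart from the other blastocyst libraries. In the IV-D group 1278 of the 7003 genes were past the fold lower in TE than in IT (18.2%) and 660 higher in TE (9.42%), whereas within NT-D the numbers were 279 and 20, and within NT-LW 333 and 70. Members were chosen against this library, so IV-D TE can lie on the side of the clones for that reason alone, and its levels are given side by side as a description. Median FPKM of the lower members was 15.4 in IV-D IT and 12 in IV-D morulae but 3.06 to 4.0 in the clone IT and all 3 TE libraries. The share of ICM cells, the handling of the pieces and the state of the embryos were not measured, and their part in this was not tested.

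Members lower in the clones were rich in G and C. Median transcript GC content was 56.4% in the 601 lower members that had a value, against 46.7% in 349 higher members and 46.7% in 5779 genes compared. The share of genes lower in both clones was 2.94% in the quintile of genes with the lowest GC content and 26.2% in the quintile with the highest, whereas the share of higher genes was 5.8% and 4.93%. The median difference from IV-D IT went from 0.10 to -0.66 across these quintiles in NT-D IT, from 0.03 to -0.58 in NT-LW IT and from 0.08 to -0.66 in IV-D TE. The part of GC content in the result was not tested. With the median of each GC quintile taken off, 331 of the 349 higher and 328 of the 601 lower members remained past the fold in both clones.

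**Figure D2:**
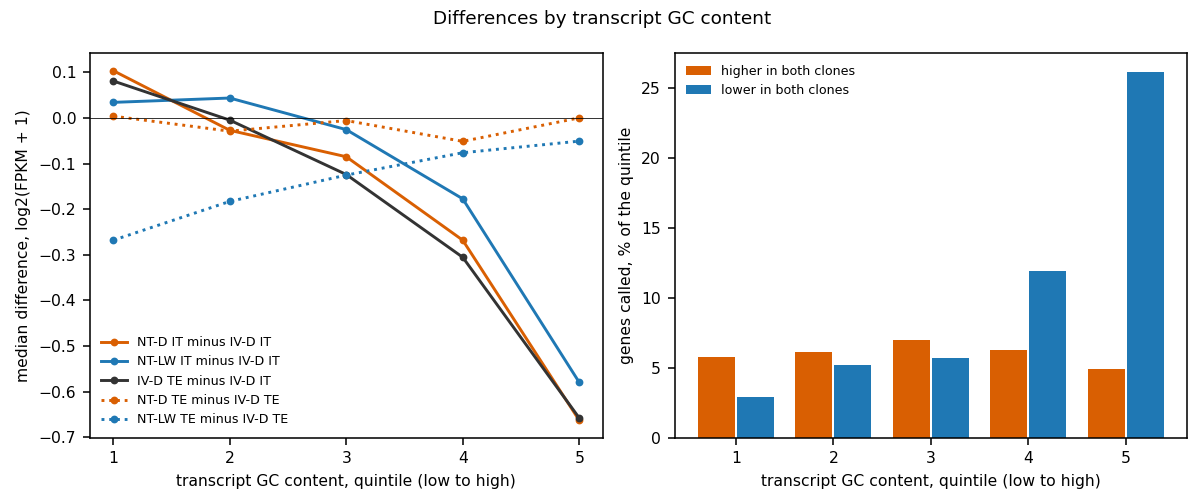
Left, median log2 difference by quintile of transcript GC content (low to high) for the clone IT libraries and IV-D TE against IV-D IT (solid) and for the clone TE libraries against IV-D TE (dotted). Right, share of the 1155 or 1156 genes of each quintile called higher (orange) or lower (blue) in both clones, where lower calls go from 2.94% to 26.2% and higher calls stay between 4.93% and 7.01%.

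Transcription factors of the ICM were among the lower members. Of 12 epiblast and ICM markers compared, 6 were lower in both clones, 2 were higher and 4 were neither, beside 10.6% lower and 6.13% higher over all genes, with a median difference of -1.01 in NT-D and -1.15 in NT-LW. GSC and KLF17, among these lower markers, were picked by the study as high in IV-D IT and low in IV-D TE. Their levels below IV-D IT, and so part of this count, are not independent evidence, nor is the place of GSC above IV-D TE. SPIC, an Ets-type transcription factor (ENSSSCG00000000867, chr5:82724322-82793527), was at 376 in IV-D IT, 46.5 in NT-D IT and 117 in NT-LW IT, and IV-D TE held 0.0841. GSC, a homeobox factor known from the organizer of the gastrula, was at 39.4 in IV-D IT, 4.29 in NT-D IT and 7.32 in NT-LW IT, with 0 fragments in IV-D TE. The clones thus held less SPIC and GSC than the IV-D IT but more than the IV-D TE.

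KLF17, a Krüppel-like factor of naive pluripotent cells, was at 14.2 in IV-D IT, 2.56 in NT-D IT and 2.45 in NT-LW IT, and KLF4, a reprogramming factor of the same family, at 23.6 in IV-D IT, 9.87 in NT-D IT and 9.74 in NT-LW IT. OTX2, a homeobox factor of the epiblast, was at 56 to 9.56 (NT-D) and 25.3 (NT-LW) and LIN28A, which blocks maturation of let-7, at 29.6 to 8.93 (NT-D) and 8.8 (NT-LW), where the first value is IV-D IT. NANOG itself differed by -0.85 in NT-D and -1.18 in NT-LW, so it was past the fold in NT-LW alone. The 2 higher markers were DPPA5, an RNA-binding protein of pluripotent cells, at 49.6 in IV-D IT, 281 in NT-D IT and 359 in NT-LW IT, and KLF5, which acts in both ICM and TE, at 43.3 in IV-D IT, 99 in NT-D IT and 109.6 in NT-LW IT. Their IV-D TE levels, 168 and 78.1, were also above IV-D IT. The median difference of IT from TE over the 12 markers was 2.2 in IV-D, 1.04 in NT-D and 1.56 in NT-LW, above 0 in each group. Relative to IV-D morulae 4 markers were lower and 2 higher in both clone IT libraries.

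Several transcription factors that the study names were also lower. Beside GSC and KLF17, it picked RUNX1T1, BATF3, DLX5, BCL3, SNAI1, OSR2 and ZFP36L2 as high in IV-D IT and low in IV-D TE. EHF, KLF2 and ZIC5 came from its comparison of NT-D and IV-D blastocysts with added replicates, which were not analysed here. MYC, BMP4 and MBD3 were among the pluripotency genes it followed. All were named from data that include these groups, so they are not independent evidence of direction. RUNX1T1, a corepressor of the ETO family, was at 29.1 in IV-D IT, 3.28 in NT-D IT and 10.5 in NT-LW IT, BATF3, a leucine zipper factor, at 16.1 in IV-D IT, 5.14 in NT-D IT and 1.43 in NT-LW IT, and DLX5, a homeobox factor, at 15.4 in IV-D IT, 2.43 in NT-D IT and 1.68 in NT-LW IT. BCL3, a nuclear IkB protein, was at 15.8 in IV-D IT, 1.97 in NT-D IT and 3.06 in NT-LW IT and SNAI1, a repressor of E-cadherin, at 23.1 in IV-D IT, 6.39 in NT-D IT and 4.66 in NT-LW IT. OSR2, a zinc finger factor, had 546 fragments in IV-D IT, 0 in NT-D IT and 3 in NT-LW IT, and 1 in IV-D TE. MYC, the growth regulator, was at 14 in IV-D IT, 2.19 in NT-D IT and 3.29 in NT-LW IT, and ZFP36L2, which destabilizes messenger RNA, at 13.2 in IV-D IT, 3.82 in NT-D IT and 3.77 in NT-LW IT. EHF, an epithelial Ets factor, was at 2.69 in IV-D IT, 0.339 in NT-D IT and 0.453 in NT-LW IT. BMP4 was under an FPKM of 1 in one or more comparisons and was not compared in both, and KLF2, ZIC5 and MBD3 were not analysed here.

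Some genes that cells switch on within minutes of a stimulus or of stress were among the lower members, while ATF3, another, was inside the fold. No list of such genes was counted. FOS, a subunit of the AP-1 factor (ENSSSCG00000002383, chr7:98449508-98451971), was at 68.8 in IV-D IT, 3.24 in NT-D IT and 2.57 in NT-LW IT, and its IV-D IT value of 68.8 was the highest among morula, IT and TE libraries of the 3 groups. DUSP1, a phosphatase that shuts off MAP kinases, was at 89.8 in IV-D IT, 4.99 in NT-D IT and 2.35 in NT-LW IT. GADD45G, a stress-induced regulator of growth arrest, was at 64.9 in IV-D IT, 0.887 in NT-D IT and 2.25 in NT-LW IT. RGS2, which ends G protein signals, was at 25.4 in IV-D IT, 0.146 in NT-D IT and 0.195 in NT-LW IT, which is 2239 fragments against 14 and 19. PPP1R15A, which brings a phosphatase to the initiation factor eIF2, was at 29 in IV-D IT, 1.36 in NT-D IT and 1.54 in NT-LW IT. All 5 were far lower in IV-D TE than in IV-D IT, with 1.99, 3.89, 2.56, 0.0737 and 3.69 in IV-D TE for FOS, DUSP1, GADD45G, RGS2 and PPP1R15A. JUN, the partner of FOS, was added after its values were seen and was at 43.8 in IV-D IT, 3.62 in NT-D IT and 2.78 in NT-LW IT.

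Several cytosolic heat shock genes were lower in the clones. Of 12 heat shock and chaperone genes compared, 5 were lower, 0 higher and 7 neither, beside 10.6% lower and 6.13% higher over all genes, with a median of -1.18 in NT-D and -1.0 in NT-LW. DNAJB1, which feeds client proteins to HSP70, was at 288 in IV-D IT, 15.1 in NT-D IT and 21.2 in NT-LW IT, a deficit of 19-fold in NT-D and 13.6-fold in NT-LW. BAG3, an exchange factor of HSP70, was at 44.3 in IV-D IT, 1.75 in NT-D IT and 4.14 in NT-LW IT. HSPH1, of the HSP110 family, was at 185 in IV-D IT, 30.4 in NT-D IT and 37.6 in NT-LW IT, and HSPA8, the constitutive HSP70, at 4373 in IV-D IT, 1752 in NT-D IT and 1407 in NT-LW IT. The remaining lower member of the list was HSP90AB1, the constitutive HSP90, at 241 in IV-D IT, 99.2 in NT-D IT and 77.1 in NT-LW IT. HSP70.2, by its symbol an HSP70 gene, stood furthest out of all lower members at 262 in IV-D IT, 4.36 in NT-D IT and 6.67 in NT-LW IT. ZFAND2A, an arsenite- and heat-inducible zinc finger protein, was at 142 in IV-D IT, 3.69 in NT-D IT and 5.92 in NT-LW IT. Copies of HSP70 genes are nearly identical, so the counting of HSP70.2 may have split their fragments, and this value is uncertain.

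IV-D IT held the highest level among the 9 morula and blastocyst libraries for DNAJB1, BAG3, HSPH1, HSP70.2 and ZFAND2A, and their IV-D TE levels (25.6, 7.33, 65, 16 and 16.5) were much nearer to the clones. HSP70.2 and ZFAND2A, and no member of the list, were past the fold below both IV-D IT and IV-D TE in both clones. The promoter of HSPA8 (RefSeq, Sscrofa11.1, chr9:49986711-49987010 on the minus strand) is shown because it held 2 matches to the heat shock element, GAANNTTCNNGAA or TTCNNGAANNTTC, in capitals, that begin 222 and 55 bases before the start. The window runs from 250 bases before the annotated start to 50 after.
HSPA8: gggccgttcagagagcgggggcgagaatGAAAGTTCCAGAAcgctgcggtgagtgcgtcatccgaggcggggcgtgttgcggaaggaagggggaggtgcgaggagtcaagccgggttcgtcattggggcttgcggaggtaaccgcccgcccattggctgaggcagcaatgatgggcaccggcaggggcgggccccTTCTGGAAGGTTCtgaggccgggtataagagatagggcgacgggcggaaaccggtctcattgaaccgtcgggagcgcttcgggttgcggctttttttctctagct
On both strands, 74 of 19519 promoters of that length held a match (0.379%), against 2 of 5 lower list genes (HSP90AB1 and HSPA8) and 2 of 6 that were neither and had a promoter (DNAJA1 and HSPD1).

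**Figure D3:**
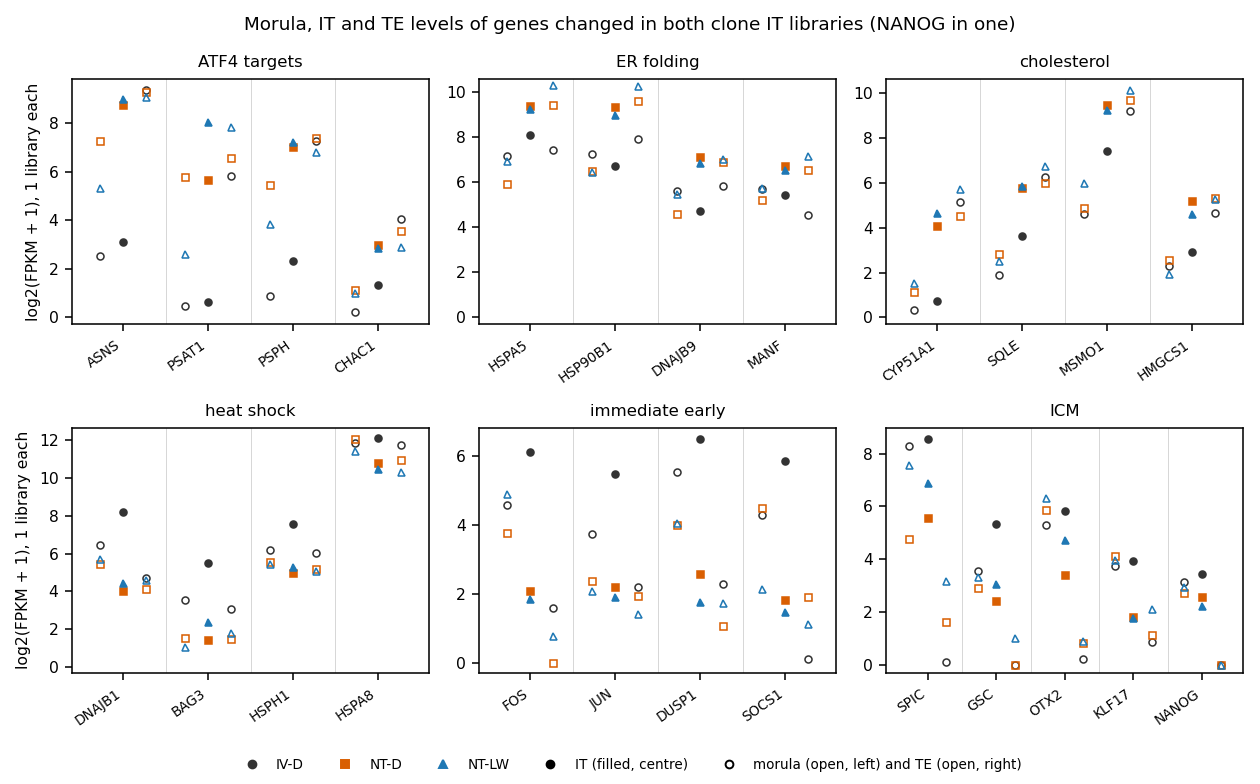
Levels on the log2(FPKM + 1) scale, 1 point per library, of named genes in 6 panels (ATF4 targets, ER folding, cholesterol, heat shock, immediate early and ICM genes) in morula (open, left), IT (filled, centre) and TE (open, right) of IV-D (black circles), NT-D (orange squares) and NT-LW (blue triangles). ASNS is at 7.6 FPKM in IV-D IT against 435 and 516 in the clone IT libraries and 664 in IV-D TE, and FOS at 68.8 against 3.24, 2.57 and 1.99.

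Cell cycle genes were often lower in the clones. Of 34 compared, 15 were lower and 1 was higher, beside 10.6% and 6.13% of all genes, with a median of -1.07 in NT-D and -1.03 in NT-LW. CCND3, a D-type cyclin of the G1 phase, was at 10.7 in IV-D IT, 0.852 in NT-D IT and 1.41 in NT-LW IT and CCNE1, the cyclin of S phase entry, at 13.2 in IV-D IT, 2.94 in NT-D IT and 2.91 in NT-LW IT. MCM7, a subunit of the replicative helicase, was at 35.8 in IV-D IT, 6.45 in NT-D IT and 7.01 in NT-LW IT, and CDT1, which loads that helicase, at 10.5 in IV-D IT, 0.795 in NT-D IT and 2.13 in NT-LW IT. Of mitotic genes CCNB1, the cyclin of mitosis, was at 285 to 139.8 (NT-D) and 117 (NT-LW), PLK1, a mitotic kinase, at 12.4 to 5.15 (NT-D) and 3.43 (NT-LW) and AURKB, the kinase of the chromosomal passenger complex, at 33.3 to 8.92 (NT-D) and 10.05 (NT-LW). CDK1, the mitotic kinase, stayed inside the fold in NT-D, with -0.94 (NT-D) and -1.12 (NT-LW). The single higher gene was CDKN1A, the p21 inhibitor of cyclin-dependent kinases. The median difference of IT from TE over the list was 1.14 in IV-D, -0.11 in NT-D and 0.32 in NT-LW. Past the fold, 0 list genes were below both in vivo parts in both clones.

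Of 14 cytokine, JAK-STAT and interferon genes 6 were lower and 0 higher, beside 10.6% and 6.13% of all genes. SOCS1, a feedback inhibitor of JAK kinases, was at 57.1 in IV-D IT, 2.5 in NT-D IT and 1.79 in NT-LW IT, while IRF1, an interferon-induced factor, was at 5.95 in IV-D IT, 0.147 in NT-D IT and 0.314 in NT-LW IT. STAT3, which carries the signal of LIF and IL6, was at 3.83 in IV-D IT, 0.566 in NT-D IT and 0.901 in NT-LW IT, and CISH, another inhibitor of the pathway, at 2.85 in IV-D IT, 0.257 in NT-D IT and 0.154 in NT-LW IT. Their levels in IV-D TE were 0.0804, 0.278, 0.147 and 0.0950. IL6, a ligand of the pathway, was inside the fold in NT-LW, at 50.4 in IV-D IT, 171 in NT-D IT and 91.9 in NT-LW IT.

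Of 15 Hippo and YAP genes 5 were lower (10.6% over all genes) and 0 higher. CCN2 and CCN1, secreted targets of YAP, were at 11.9 in IV-D IT, 1.24 in NT-D IT and 0.394 in NT-LW IT and at 12.2 in IV-D IT, 3.86 in NT-D IT and 1.99 in NT-LW IT, respectively. WWTR1, the coactivator TAZ, was at 44.6 in IV-D IT, 7.54 in NT-D IT and 9.67 in NT-LW IT, and TEAD4, the DNA-binding partner that sets up TE, at 14.3 in IV-D IT, 4.36 in NT-D IT and 6.64 in NT-LW IT. Also lower was AJUBA, a scaffold that restrains LATS kinases, at 1.53 in IV-D IT, 0.234 in NT-D IT and 0.0192 in NT-LW IT. YAP1 itself was at 2.67 in IV-D IT, 4.93 in NT-D IT and 5.57 in NT-LW IT and thus not among the lower genes.

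Of 13 Wnt genes 4 were lower and 2 higher, where 10.6% and 6.13% of all genes were. PORCN, the acyltransferase that Wnt ligands need for secretion (ENSSSCG00000024793, chrX:42653696-42669526), was at 23.5 in IV-D IT, 0.357 in NT-D IT and 0.375 in NT-LW IT, with 904, 15 and 16 fragments and 77.3 in IV-D morulae. FZD3, a receptor, was at 11.7 in IV-D IT, 1.67 in NT-D IT and 2.16 in NT-LW IT, whereas FZD4, another, was at 1.12 in IV-D IT, 4.09 in NT-D IT and 3.71 in NT-LW IT and the ligand WNT6 at 0.917 in IV-D IT, 7.92 in NT-D IT and 4.08 in NT-LW IT. The other lower genes were AXIN1 and AXIN2, scaffolds of the destruction complex, at 2.79 to 0.835 (NT-D) and 0.666 (NT-LW) and 4.23 to 1.41 (NT-D) and 1.2 (NT-LW). In IV-D TE, PORCN and FZD3 were at 0.0674 and 0.716.

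Of 21 BMP, NODAL and TGF-beta genes 2 were lower and 2 higher, which is near the shares over all genes (10.6% and 6.13%) and no result about the pathway. Lower were BAMBI, a decoy receptor, at 16 in IV-D IT, 0.671 in NT-D IT and 1.4 in NT-LW IT, and ID2, a BMP target, at 15.6 in IV-D IT, 4.51 in NT-D IT and 3.6 in NT-LW IT. The 2 higher were GDF15 and SMAD5, the latter a transducer of BMP signals, at 1.68 in IV-D IT, 6.13 in NT-D IT and 4.63 in NT-LW IT. Of 11 FGF and ERK genes 3 were lower (FOS, IER3 and FGFR4) and 1 was higher, against the same shares. FGFR4, an FGF receptor, was at 4.85 in IV-D IT, 0.748 in NT-D IT and 1.06 in NT-LW IT, and IER3, an early response gene, at 6.79 in IV-D IT, 1.64 in NT-D IT and 2.14 in NT-LW IT. MAP2K1, the kinase MEK1, was the higher one, at 2.54 in IV-D IT, 14 in NT-D IT and 12.7 in NT-LW IT.

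Imprinted genes, which are expressed from one parental copy and whose marks can be lost in clones, had 6 lower and 1 higher of 14, beside 10.6% and 6.13% of all genes. SGCE, a sarcoglycan beside PEG10, was at 15.7 in IV-D IT, 0.707 in NT-D IT and 0.678 in NT-LW IT and at 0.135 in IV-D TE. CDKN1C and PHLDA2, growth restrainers of the same cluster, were at 24.8 in IV-D IT, 6.37 in NT-D IT and 4.37 in NT-LW IT and at 97.7 in IV-D IT, 34 in NT-D IT and 31.1 in NT-LW IT. TSSC4 and NAP1L4, of that cluster too, were at 6.8 in IV-D IT, 1.7 in NT-D IT and 1.02 in NT-LW IT and at 24.9 in IV-D IT, 9.16 in NT-D IT and 7.44 in NT-LW IT, and DIRAS3, a small GTPase, was at 13.7 in IV-D IT, 6.22 in NT-D IT and 4.95 in NT-LW IT. GRB10, an inhibitor of insulin signalling, was the higher one, at 1.05 in IV-D IT, 4.63 in NT-D IT and 6.77 in NT-LW IT. Allelic origin was not measured.

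Other lists gave few members, at shares near or under those of all genes. BAD, a promoter of cell death of the BCL2 family, was abundant at 1479 in IV-D IT and 985 in IV-D morulae and stood at 102 in NT-D IT and 159 in NT-LW IT, while IV-D TE held 1.6. BAK1, a pore-forming member of the same family, was at 3.72 in IV-D IT, 0.294 in NT-D IT and 0.248 in NT-LW IT, and these were the 2 lower of 17 apoptosis genes. SULT1E1, which sulphates estrogens, went the same way as BAD, at 699 in IV-D IT, 44.3 in NT-D IT and 69.3 in NT-LW IT and at 0.177 in IV-D TE, and was 1 of 10 retinoid and steroid genes. AQP3, a water and glycerol channel, was the lower one of 16 genes of blastocoel formation, at 45.6 in IV-D IT, 7.62 in NT-D IT and 7.17 in NT-LW IT. EPCAM and DSC2, adhesion proteins, were inside the fold at 105 in IV-D IT, 81.7 in NT-D IT and 75.4 in NT-LW IT and 110.3 in IV-D IT, 133 in NT-D IT and 90.4 in NT-LW IT.

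Of 21 enzymes of DNA methylation and acetylation 2 were lower, near the 10.6% over all genes, HDAC3, a deacetylase, at 12.8 in IV-D IT, 2.86 in NT-D IT and 3.88 in NT-LW IT, and ING1, a reader in deacetylase complexes, at 28.5 in IV-D IT, 6.4 in NT-D IT and 6.56 in NT-LW IT. Of 16 histone methylation enzymes 0 were lower and 0 higher, with the polycomb subunits EED at 177 in IV-D IT, 86.7 in NT-D IT and 106 in NT-LW IT and SUZ12 at 16.4 in IV-D IT, 16.6 in NT-D IT and 18.3 in NT-LW IT. MTF1, the zinc-sensing factor, was the lower of 4 metallothionein and zinc genes (10.6% over all genes), at 5.1 in IV-D IT, 1.58 in NT-D IT and 1.59 in NT-LW IT. The metallothioneins MT1A, MT1D, MT2A and MT3 of that list were not analysed here. MT1X, a metallothionein outside the list and added after its values were seen, was higher. It was at 35.7 in IV-D IT, 88.9 in NT-D IT and 97.4 in NT-LW IT, past the fold above both in vivo parts. The transporters SLC39A10 and SLC30A1 were at 10.6 in IV-D IT, 6.13 in NT-D IT and 4.34 in NT-LW IT and at 6.84 in IV-D IT, 1.76 in NT-D IT and 6.33 in NT-LW IT.

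**Figure D4:**
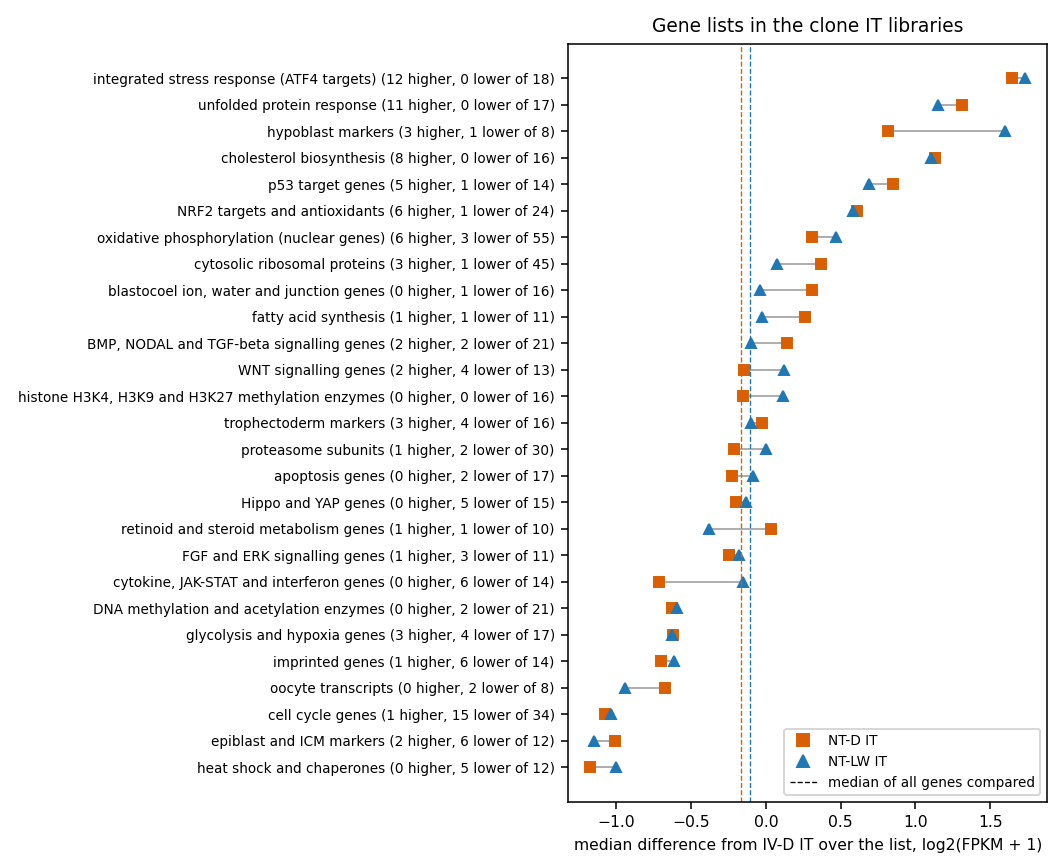
Median difference in log2(FPKM + 1) from IV-D IT over each gene list with at least 8 genes compared, in NT-D IT (orange squares) and NT-LW IT (blue triangles), joined by a line and ordered by these medians, with the counts of genes higher and lower in both clones beside the names. Dashed lines mark the medians of all genes compared, -0.17 and -0.11. ATF4 targets are farthest right, at 1.64 in NT-D and 1.74 in NT-LW, and heat shock genes, epiblast and ICM markers and cell cycle genes farthest left, with medians from -1.18 to -1.01.

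The counts of lower genes in these lists and in lists described further on moved with GC content. With the median of each GC quintile taken off, lower genes numbered 3 of 11 epiblast and ICM markers with a GC value, 11 of 34 cell cycle genes, 3 of 14 cytokine genes, 2 of 15 Hippo genes and 3 of 14 imprinted genes, while heat shock genes stayed at 5 of 12. The same step took Wnt genes from 4 to 2, FGF and ERK genes from 3 to 1, glycolysis and hypoxia genes and TE markers from 4 to 2 each, oxidative phosphorylation from 3 to 0 and proteasome subunits from 2 to 0. Median GC content was 55.4% over the epiblast and ICM markers and 45.1% over the heat shock genes. On the higher side the same step left 13 of 18 ATF4 targets, 12 of 17 genes of the unfolded protein response and 7 of 15 cholesterol genes, and gave 11 of 24 NRF2 targets and 11 of 46 genes of oxidative phosphorylation.

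Genes of serine and asparagine synthesis were among the higher members. When amino acids run short or unfolded proteins build up, kinases of eIF2 let the factor ATF4 be translated, and ATF4 turns on amino acid synthesis and transport. Of 18 such targets compared, 12 were higher in both clones (6.13% over all genes) and 0 lower, with a median of 1.64 in NT-D and 1.74 in NT-LW. ASNS, asparagine synthetase (ENSSSCG00000015340, chr9:77318341-77336290), was at 7.6 in IV-D IT, 435 in NT-D IT and 516 in NT-LW IT, a fold of 57.3 in NT-D (95% interval 50.5 to 65.2) and 67.9 in NT-LW (59.9 to 77.3), where intervals count fragments only. NUPR1, a small stress-induced chromatin protein, was at 21.5 in IV-D IT, 1877 in NT-D IT and 1424 in NT-LW IT. PSAT1 and PSPH, the second and last enzymes of serine synthesis, were at 0.548 in IV-D IT, 49.6 in NT-D IT and 265 in NT-LW IT and at 3.95 in IV-D IT, 129 in NT-D IT and 147 in NT-LW IT, respectively.

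PHGDH, the first enzyme of that path, was at 2.76 in IV-D IT, 13.6 in NT-D IT and 13.3 in NT-LW IT. SLC7A11, the cystine importer, was at 0.219 in IV-D IT, 15.9 in NT-D IT and 17.3 in NT-LW IT, and CHAC1, which degrades glutathione, at 1.48 in IV-D IT, 6.84 in NT-D IT and 6.28 in NT-LW IT. STC2, a secreted stress protein, was at 0.472 in IV-D IT, 6.66 in NT-D IT and 8.31 in NT-LW IT, GDF15, a stress cytokine, at 0.183 in IV-D IT, 2.46 in NT-D IT and 5.75 in NT-LW IT, and CEBPG, a partner of ATF4, at 7.58 in IV-D IT, 25.4 in NT-D IT and 28.4 in NT-LW IT. SESN2, a sensor of leucine, and ALDH1L2, of mitochondrial folate metabolism, were at 0.156 in IV-D IT, 1.64 in NT-D IT and 2.74 in NT-LW IT and at 0.944 in IV-D IT, 6.18 in NT-D IT and 3.88 in NT-LW IT. Of the genes that were neither, SLC3A2, the heavy chain that SLC7A11 pairs with, differed by -0.96 (NT-D) and -1.74 (NT-LW), and MTHFD2, of folate metabolism, differed by 0.44 (NT-D) and -0.07 (NT-LW). ATF3, a factor of the same response, was at 28.8 in IV-D IT, 20.03 in NT-D IT and 22.4 in NT-LW IT.

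The ATF4 targets were also high in IV-D TE, at 664 for ASNS, 1042 for NUPR1, 56.4 for PSAT1 and 155 for PSPH. The median difference of IT from TE over the 18 genes was -1.95 in IV-D, -0.44 in NT-D and -0.04 in NT-LW. Of the 18, 0 were past the fold above both in vivo parts in both clones. IV-D IT and the IV-D morula were thus the libraries with low levels, the morula holding 4.76 for ASNS. In clone morulae ASNS was at 153 (NT-D) and 39.4 (NT-LW) and PSAT1 at 53.6 and 5.04 against 0.367 in IV-D morulae, so that these genes were already higher in clones before the blastocyst. Of aminoacyl tRNA synthetases, which load amino acids onto tRNA, GARS1 (7.0 to 61.7 (NT-D) and 71.3 (NT-LW)) and SARS1 (28.8 to 212 (NT-D) and 259 (NT-LW)) were higher too, and HARS1 (25.7 to 4.14 (NT-D) and 5.44 (NT-LW)) was lower, as picked after their values were seen.

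The promoter of SLC7A11 (RefSeq, Sscrofa11.1, chr8:88607833-88608132 on the plus strand) is shown because it held 2 matches to the amino acid response element, TGATGNAA, in capitals, that begin 46 and 27 bases before the start. The latter match reads on the other strand.
SLC7A11: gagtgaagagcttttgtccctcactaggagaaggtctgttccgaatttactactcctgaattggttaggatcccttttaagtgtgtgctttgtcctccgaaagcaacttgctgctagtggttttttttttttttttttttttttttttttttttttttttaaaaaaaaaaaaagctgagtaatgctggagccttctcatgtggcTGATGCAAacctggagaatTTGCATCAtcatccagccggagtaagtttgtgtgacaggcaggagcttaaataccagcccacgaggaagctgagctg
On both strands a match lay in 548 of 19519 promoters (2.81%) and in 2 of 12 higher ATF4 targets, SLC7A11 and CHAC1. Among all members with a promoter the share was 3.74% of 348 higher and 1.71% of 584 lower genes. PSAT1 and PSPH held no match in this window. ASNS held none either, but its window ran into what reads as the start of its coding sequence. The annotated start of ASNS may thus not mark its promoter, and nothing is read from that window.

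Chaperones of the endoplasmic reticulum (ER) were among the higher members. When proteins misfold in the ER, the sensors IRE1, PERK and ATF6 start the unfolded protein response, which raises ER chaperones and the machinery that discards misfolded proteins. Of 17 genes compared 11 were higher and 0 lower, beside 6.13% and 10.6% of all genes, with a median of 1.31 in NT-D and 1.15 in NT-LW. HSP90B1, the ER form of HSP90 (ENSSSCG00000000849, chr5:80511513-80531016), was at 104 in IV-D IT, 643 in NT-D IT and 503 in NT-LW IT, and HSPA5, the ER form of HSP70 called BiP, at 266 in IV-D IT, 661 in NT-D IT and 600.0 in NT-LW IT. DNAJB9 and DNAJC3, cochaperones of HSPA5, were at 24.9 in IV-D IT, 137 in NT-D IT and 113 in NT-LW IT and at 15.5 in IV-D IT, 109 in NT-D IT and 62 in NT-LW IT, respectively. XBP1, the factor that IRE1 activates by splicing, was at 22.7 in IV-D IT, 72.3 in NT-D IT and 71.4 in NT-LW IT, with splicing not measured.

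The rest of the higher genes of this list were HERPUD1 and SEL1L, of ER-associated degradation, CANX, a lectin chaperone, and MANF, PDIA4 and HYOU1, which aid folding. They went from 1.91 (HYOU1) to 49.5 (CANX) in IV-D IT, and from 5.91 to 117 in NT-D IT and 4.95 to 111 in NT-LW IT for the same genes. Members that were neither included CALR, calreticulin, at 101 in IV-D IT, 216 in NT-D IT and 88.6 in NT-LW IT, and CRELD2 at 7.61 in IV-D IT, 22.7 in NT-D IT and 14.9 in NT-LW IT, both past the fold in NT-D alone, with differences of 1.08 (NT-D) and -0.19 (NT-LW) and of 1.46 (NT-D) and 0.88 (NT-LW).

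Part of these ER genes was higher than in both in vivo parts. HSP90B1, DNAJB9, HSPA5, MANF, PDIA4 and HYOU1, 6 of the 17, were past the fold above IV-D IT and IV-D TE in both clones, beside 0.7% of all genes compared. HSPA5 was at 172 in IV-D TE and at 675 and 1242 in NT-D TE and NT-LW TE. In the TE comparison, which shares the IV-D TE library with that count but no IT library, 10 of the 17 genes were higher in both clones, beside 1.57%. In morulae HSPA5 was at 139.6 (IV-D), 58.8 (NT-D) and 119 (NT-LW), and HSP90B1 at 149.7, 88.5 and 85, with no clone above IV-D for these genes. DNAJC3 was at 24.7, 28.5 and 51.8, and the median FPKM of the list at 24.7, 23.1 and 42.7 in the same order. Outside the list, DNAJB11, a cochaperone of HSPA5, PPIB and PPIC, proline isomerases of the ER, DAD1, a subunit of the enzyme that adds sugar chains, and SEC24D, of the coat of vesicles that leave the ER, were also above both in vivo parts in both clones and were picked after their values were seen. DAD1 was at 199 in IV-D IT, 597 in NT-D IT and 520.4 in NT-LW IT and 183 in IV-D TE.

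The promoters of HSPA5 and HSP90B1 (RefSeq, Sscrofa11.1, chr1:265934910-265935209 on the minus strand and chr5:80530967-80531266 on the minus strand) are shown because they held the ER stress element, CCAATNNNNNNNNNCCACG, in capitals. It begins 12 bases before the annotated start of HSPA5, and 135 and 31 bases before that of HSP90B1, where the latter match reads on the other strand. In HSPA5 the element runs across the annotated start, which may not mark where transcription begins.
HSPA5: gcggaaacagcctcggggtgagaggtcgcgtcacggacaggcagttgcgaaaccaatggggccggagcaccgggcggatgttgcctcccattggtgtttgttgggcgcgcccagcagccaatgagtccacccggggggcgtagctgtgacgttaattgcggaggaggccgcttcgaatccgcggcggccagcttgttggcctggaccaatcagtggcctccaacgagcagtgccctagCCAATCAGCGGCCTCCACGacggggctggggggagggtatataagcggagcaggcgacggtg
HSP90B1: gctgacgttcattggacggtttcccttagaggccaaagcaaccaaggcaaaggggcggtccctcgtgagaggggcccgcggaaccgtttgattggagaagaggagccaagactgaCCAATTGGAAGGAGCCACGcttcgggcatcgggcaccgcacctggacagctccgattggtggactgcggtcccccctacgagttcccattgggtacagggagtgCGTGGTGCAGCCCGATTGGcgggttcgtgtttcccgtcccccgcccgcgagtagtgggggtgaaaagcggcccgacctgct
A match on either strand lay in 16 of 19519 promoters (0.082%). Of the 11 higher list genes 4 held it (CANX, HSP90B1, HSPA5 and XBP1), and of the 6 that were neither, 3 held it (CALR, CRELD2 and PDIA6).

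Enzymes of cholesterol synthesis were higher in part. Cells low in sterol release SREBF2, which turns these genes on. Of 16 compared 8 were higher and 0 lower, beside 6.13% and 10.6% of all genes, with a median of 1.13 in NT-D and 1.1 in NT-LW. CYP51A1, which demethylates lanosterol, was at 0.668 in IV-D IT, 15.9 in NT-D IT and 24.5 in NT-LW IT, SQLE, the epoxidase, at 11.3 in IV-D IT, 53.7 in NT-D IT and 58 in NT-LW IT and MSMO1, a sterol oxidase, at 171 in IV-D IT, 709 in NT-D IT and 617 in NT-LW IT. HMGCS1, IDI1, EBP and SC5D were also higher. IV-D TE was as high, with 34.1, 75.1 and 586, and 0 of the 16 were past the fold above both in vivo parts in both clones. Of 11 fatty acid genes SCD, the desaturase, was higher at 17.1 in IV-D IT, 53.4 in NT-D IT and 72.6 in NT-LW IT and ELOVL6, an elongase, lower at 19.98 in IV-D IT, 3.98 in NT-D IT and 4.1 in NT-LW IT. Both fatty acid counts are near the shares over all genes.

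Targets of p53, the factor that answers DNA damage, had 5 higher and 1 lower of 14, beside 6.13% and 10.6% of all genes. MDM2, the ligase that degrades p53, was at 12.8 in IV-D IT, 72.3 in NT-D IT and 75 in NT-LW IT. ZMAT3, an RNA-binding target, was at 3.12 in IV-D IT, 23.8 in NT-D IT and 18.3 in NT-LW IT, and CDKN1A at 3.7 in IV-D IT, 16 in NT-D IT and 14.2 in NT-LW IT. The others were TP53INP1 (3.02 to 9.6 (NT-D) and 9.48 (NT-LW)) and SESN2, which also counts among the ATF4 targets. PLK3, a stress kinase, was lower at 5.46 in IV-D IT, 0.812 in NT-D IT and 0.764 in NT-LW IT. IV-D TE stood at 46.8, 22.2 and 15 for MDM2, ZMAT3 and CDKN1A. In morulae MDM2 was at 16.4 (IV-D), 91.1 (NT-D) and 97.6 (NT-LW), and CDKN1A at 0.601, 33.2 and 33.5, again with both clones above IV-D.

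Of 8 hypoblast markers 3 were higher and 1 lower, beside 6.13% and 10.6% of all genes. APOA1 and APOC3, apolipoproteins of visceral endoderm, were at 20.2 in IV-D IT, 144 in NT-D IT and 458 in NT-LW IT and at 0.916 in IV-D IT, 47.7 in NT-D IT and 91 in NT-LW IT, and IV-D TE held 20.9 and 17.4. APOA2, of the same family and not in the list, was at 130.3 in IV-D IT, 793 in NT-D IT and 1143 in NT-LW IT. These 3 were above both in vivo parts in both clones. APOA1 and APOC3 were also past the fold higher in IT than in TE within each clone group, where TE held 0.574 (NT-D) and 22.8 (NT-LW) of APOA1, while APOA2 was inside it. LAMC1, a laminin chain of basement membrane, was at 0.642 in IV-D IT, 4.97 in NT-D IT and 5.63 in NT-LW IT. PDGFRA, the receptor of hypoblast cells, was lower, at 11.6 in IV-D IT, 1.66 in NT-D IT and 2.22 in NT-LW IT, and at 0.0614 in IV-D TE.

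TE markers did not move as one group, with 3 higher and 4 lower of 16 (6.13% and 10.6% over all genes) and medians of -0.02 in NT-D and -0.10 in NT-LW, which lay on the other side of 0 with the medians of GC quintiles taken off (0.28 in NT-D and 0.21 in NT-LW). GATA3, a TE factor, was at 5.42 in IV-D IT, 17.1 in NT-D IT and 14.4 in NT-LW IT, LGALS3, a galectin, at 22.4 in IV-D IT, 201 in NT-D IT and 129 in NT-LW IT, and PTGS2, which makes prostaglandins, at 113 in IV-D IT, 296 in NT-D IT and 229 in NT-LW IT. CLDN4, a tight junction protein, was lower at 105 in IV-D IT, 30.5 in NT-D IT and 27.6 in NT-LW IT, and ELF3, an epithelial factor, at 11.07 in IV-D IT, 3.73 in NT-D IT and 2.97 in NT-LW IT. The remaining lower ones were EHF and TEAD4. TFAP2C, a factor of TE and its precursors, was level at 7.86 in IV-D IT, 7.89 in NT-D IT and 5.71 in NT-LW IT.

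Of 24 NRF2 targets and antioxidants 6 were higher and 1 lower, beside 6.13% and 10.6% of all genes. MGST1, a glutathione transferase of membranes, was at 22.1 in IV-D IT, 669 in NT-D IT and 193 in NT-LW IT, and ABCC2, an exporter of conjugates, at 0.532 in IV-D IT, 7.05 in NT-D IT and 19 in NT-LW IT. GSTA4, GSTM3 and ME1 made up the rest with SLC7A11. PGD, of the pentose phosphate path, was lower at 46.6 in IV-D IT, 8.39 in NT-D IT and 15 in NT-LW IT. IV-D TE had 980.1 of MGST1, and 0 of the 24 were past the fold above both in vivo parts in both clones.

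Nuclear genes of oxidative phosphorylation had 6 higher and 3 lower of 55, beside 6.13% and 10.6% of all genes, with medians of 0.31 in NT-D and 0.47 in NT-LW. Higher were NDUFB1 of complex I (23.2 in IV-D IT, 112 in NT-D IT and 112 in NT-LW IT) and ATP5ME of the ATP synthase (416 in IV-D IT, 1177 in NT-D IT and 988 in NT-LW IT) among them, with NDUFB2, NDUFA6, NDUFS4 and ATP5PF. Lower were UQCRC1 of complex III at 339 in IV-D IT, 124 in NT-D IT and 142 in NT-LW IT, NDUFA10 at 252 in IV-D IT, 89.2 in NT-D IT and 106 in NT-LW IT and NDUFV1, and 0 were lower with the GC medians taken off. NDUFB1, NDUFB2 and ATP5ME were above both in vivo parts. Of 45 cytosolic ribosomal proteins 3 were higher, RPL23A, RPL36A and RPS27L, and 1 was lower, RPL10L, which is near or under the shares over all genes. RPL23A was at 19.5 in IV-D IT, 81.5 in NT-D IT and 55.8 in NT-LW IT, RPL36A at 36.8 in IV-D IT, 178 in NT-D IT and 101 in NT-LW IT, RPS27L at 48.4 in IV-D IT, 173 in NT-D IT and 129 in NT-LW IT and RPL10L, a retrocopy of RPL10, at 9.11 in IV-D IT, 1.46 in NT-D IT and 0 in NT-LW IT. Ribosomal protein genes have many processed copies that can share reads, so single values are uncertain.

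Of 17 glycolysis and hypoxia genes 3 were higher and 4 lower, beside 6.13% and 10.6% of all genes. SLC2A2, a glucose transporter, was at 7.52 in IV-D IT, 24.5 in NT-D IT and 21.9 in NT-LW IT and above both in vivo parts, and GAPDH was at 126 in IV-D IT, 316 in NT-D IT and 329.7 in NT-LW IT. PKM, the pyruvate kinase, was lower at 17.3 in IV-D IT, 3.84 in NT-D IT and 3.29 in NT-LW IT, and so was ADM, adrenomedullin, at 46.2 in IV-D IT, 7.19 in NT-D IT and 8.56 in NT-LW IT. ENO1, the enolase, was at 325 to 148 (NT-D) and 106 (NT-LW). EGLN3, an oxygen sensor, and ALDOC, an aldolase, made up the rest, on the higher and the lower side. Of 30 proteasome subunits PSMA8, known from testis, was higher at 0.0685 in IV-D IT, 7.33 in NT-D IT and 5.0 in NT-LW IT, while PSMD3 (10.6 to 3.89 (NT-D) and 2.67 (NT-LW)) and PSMD13 (83.9 to 40.8 (NT-D) and 41.4 (NT-LW)) of the regulatory cap were lower. Both proteasome counts are under the shares over all genes. HSD17B11, a steroid dehydrogenase, was higher at 7.25 in IV-D IT, 21.6 in NT-D IT and 18 in NT-LW IT.

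Among the largest higher members outside these lists, AIF1, a calcium-binding protein, was at 2.26 in IV-D IT, 83.5 in NT-D IT and 52.1 in NT-LW IT, DPP4, a surface peptidase, at 2.91 in IV-D IT, 61.3 in NT-D IT and 92 in NT-LW IT, and RGN, regucalcin, at 51.5 in IV-D IT, 689.7 in NT-D IT and 487 in NT-LW IT. Their levels in IV-D TE were 81.2, 42.9 and 490.2. HMGN3, a nucleosome-binding protein (ENSSSCG00000004470, chr1:86954468-86987465), was at 3.19 in IV-D IT, 44.8 in NT-D IT and 40.2 in NT-LW IT and at 4.07 in IV-D TE, and thus above both in vivo parts. It was also higher in clones in TE (33.5 and 16.8) and in morulae (67.6 and 158 against 21.4).

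Members that also differed from the IV-D TE were few. Of the 429 higher members, 49 were above the IV-D TE past the fold in both clones (11.4%, beside 3.4% of all genes compared), and 21 were below it. Of the 742 lower members, 31 were below the IV-D TE (4.18%, beside 1.87%), and 43 were above it. Against the IV-D morula library, 302 of the higher (70.4%, beside 9.2%) and 417 of the lower members (56.2%, beside 14.4%) were past the fold in the same direction. All these comparisons use the same clone IT libraries. In the TE comparison, which uses other clone libraries and the IV-D TE, 37 of the higher members were also higher (8.62%, beside 1.57%) and 35 of the lower also lower (4.72%, beside 2.2%). In morulae 58 of the higher members were higher (13.5%, beside 4.0%) and 51 of the lower were lower (6.87%, beside 1.41%).

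The 31 genes below both in vivo parts were chosen on the IV-D TE library, which the TE comparison shares, so no overlap is counted and levels are given side by side. HORMAD1, a protein of meiotic chromosome axes, was at 22.6 in IV-D IT, 1.18 in NT-D IT and 3.39 in NT-LW IT, and at 51 in IV-D TE against 0.558 and 0.955 in the clone TE libraries. ASZ1, of the piRNA pathway of germ cells and one of the factors the study picked, was at 56.2 in IV-D IT, 1.72 in NT-D IT and 11.4 in NT-LW IT, and at 29.4, 1.03 and 3.89 in the TE libraries. NAA11, an acetyltransferase subunit, was at 36.4 in IV-D IT, 1.29 in NT-D IT and 0.604 in NT-LW IT. TYR, tyrosinase, was at 22.3 in IV-D IT, 3.42 in NT-D IT and 0.621 in NT-LW IT, with 34.8, 0.198 and 0 in TE and 22.9, 0.245 and 0 in morulae. All 4 were below the IV-D library of the same kind in clone morulae, IT and TE. TRIML2, a more abundant gene of this set, was at 89.8 in IV-D IT, 27.2 in NT-D IT and 29.7 in NT-LW IT, and PMP22, a membrane protein, at 20.5 in IV-D IT, 1.77 in NT-D IT and 2.13 in NT-LW IT. HORMAD1, TYR, TRIML2 and PMP22 were singled out after their values were seen.

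The 49 genes above both in vivo parts were chosen in the same way. Beside the ER genes, the apolipoproteins and HMGN3, they included SERPINF1, a secreted inhibitor of vessel growth, at 3.18 in IV-D IT, 27.4 in NT-D IT and 139 in NT-LW IT, SLC1A5, a glutamine transporter, at 0.0362 in IV-D IT, 5.66 in NT-D IT and 4.65 in NT-LW IT, and PLET1, a surface protein of placental cells, at 26.9 in IV-D IT, 116 in NT-D IT and 97.9 in NT-LW IT. These 3 were likewise picked afterwards. In TE, SERPINF1 was at 8.63 in IV-D TE, 40.1 in NT-D TE and 99.9 in NT-LW TE.

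**Figure D5:**
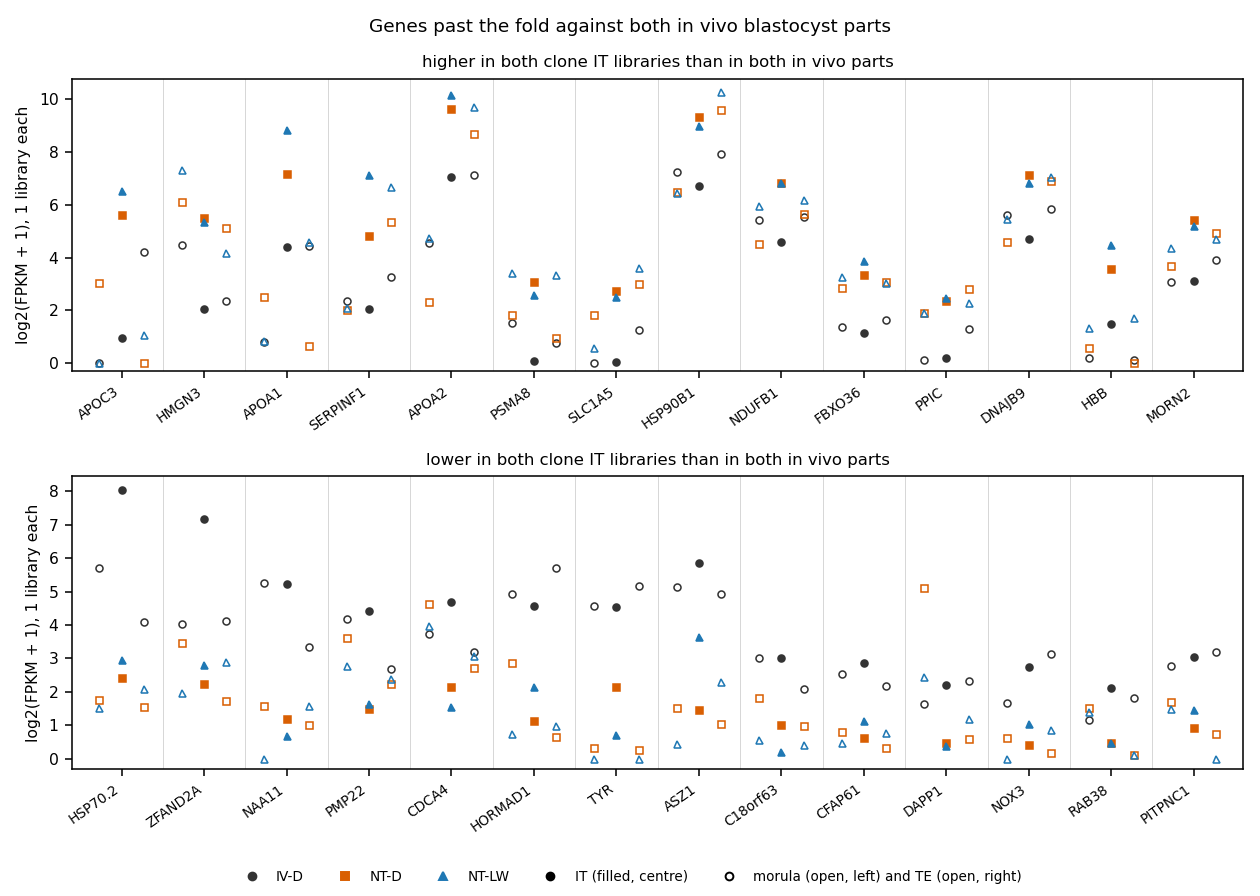
Levels on the log2(FPKM + 1) scale, 1 point per library, of 14 genes higher (top) and 14 lower (bottom) in both clone IT libraries than in both in vivo blastocyst parts, in morula (open, left), IT (filled, centre) and TE (open, right) of IV-D (black circles), NT-D (orange squares) and NT-LW (blue triangles). HMGN3 is at 44.8 and 40.2 FPKM in the clone IT libraries against 3.19 in IV-D IT and 4.07 in IV-D TE, and HORMAD1 at 1.18 and 3.39 against 22.6 and 51.

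The largest difference of all was in a gene with no symbol. ENSSSCG00000035520 was at 21.5 in IV-D IT, 12039 in NT-D IT and 12901 in NT-LW IT and at 55.9 in IV-D TE, with 94 fragments in IV-D IT against 57401 and 62418 in the clones. It was at 35077 and 13368 in clone morulae against 43.4, so all clone libraries of the 3 kinds were far above all IV-D ones. NT-D oocytes, the recipients from hybrid sows matured in vitro, held 5200 against 4.17 in IV-D oocytes from Duroc sows, in 1 library each. Source and maturation of the oocytes went together, and the cause of the difference was not tested. Its identity was not given in the sources used here. ENSSSCG00000010792 was at 158 in IV-D IT, 3367 in NT-D IT and 2073 in NT-LW IT, and ENSSSCG00000015390 at 0.463 in IV-D IT, 55 in NT-D IT and 24.7 in NT-LW IT. On the lower side ENSSSCG00000034113 was at 399 in IV-D IT, 34.7 in NT-D IT and 33.7 in NT-LW IT, with ENSSSCG00000029683 at 64 to 2.87 (NT-D) and 4.9 (NT-LW) and ENSSSCG00000028092 at 21.5 to 1.14 (NT-D) and 0.121 (NT-LW).

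Markers of other cell types were read beside these results. Fibroblast markers, which would come from donor-type cells, had 2 genes compared of 24, CALD1 at 24.5 in IV-D IT, 66.1 in NT-D IT and 41.2 in NT-LW IT and FN1 at 2.45 in IV-D IT, 1.36 in NT-D IT and 9.37 in NT-LW IT, with 0 past the fold in both and summed FPKM of the list at 27.3, 69.5 and 51.4. Of blood and leukocyte markers 3 of 19 were compared and 2 were higher, beside 6.13% of all genes. They were FCER1G, a receptor chain, at 33 in IV-D IT, 1049 in NT-D IT and 417 in NT-LW IT and HBB, beta globin, at 1.8 in IV-D IT, 10.9 in NT-D IT and 21.3 in NT-LW IT. FCER1G was at 601 in IV-D TE, and defining leukocyte genes such as PTPRC and LYZ were not analysed here. Of uterine genes only SAL1, salivary lipocalin, was compared, listed with 0 fragments in IV-D IT and 22 and 28 in the clones. Of 8 oocyte transcripts 2 were lower, beside 10.6% of all genes. H1-8, the oocyte linker histone, and BTG4, which clears maternal RNA, were at 11.4 in IV-D IT, 1.08 in NT-D IT and 0.767 in NT-LW IT and at 8.06 in IV-D IT, 1.67 in NT-D IT and 0.666 in NT-LW IT.

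X-linked genes were counted because the groups could differ in sex. Of 194 compared, 19 were higher (9.79%) and 16 lower (8.25%), beside 6.13% and 10.6% of all genes. Both shares lay within the range of the autosomes. There, higher genes made up 3.79% (chromosome 12) to 9.82% (chromosome 4), and lower genes 4.95% (chromosome 1) to 16.6% (chromosome 6). The median difference of X-linked genes, -0.07 for either clone, compares with -0.17 (NT-D) and -0.11 (NT-LW) over all genes. EIF1AY, on the Y chromosome, was at 27.6 in IV-D IT, 37.2 in NT-D IT and 37.4 in NT-LW IT. Of 13 mitochondrial genes ND1 and CYTB were lower (15.4%, beside 10.6% of all genes). ND1 was at 6144 in IV-D IT, 2233 in NT-D IT and 1797 in NT-LW IT and at 5309 in IV-D TE, and CYTB at 9607 in IV-D IT, 4166 in NT-D IT and 3445 in NT-LW IT. The rest were past the fold in one clone at most.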

How the data were processed

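The series holds 23 mRNA libraries, 1 per condition. The 3 IT libraries were compared, with the TE and morula libraries of the same groups beside them. Libraries were made from SMART-Seq v4 cDNA and read from both ends. The authors used HISAT2 2.0.4 for alignment to Sscrofa11.1 and HTSeq 0.9.1 for counts per Ensembl gene, from which the deposited FPKM values were made. DESeq is also in the submitters' processing notes. The study called genes with DEGSeq in its samples without replicates and with DESeq in those with replicates. The deposited table is named for differentially expressed genes and has 8603 of them, so each share below refers to that table. Whether counting used strand is not given in the sources used here, so reads of overlapping and antisense genes may be shared.

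From the FPKM values, whole fragments were recovered (100% within 0.02 fragments), which gave depth and counting intervals (95%). Amplified reads carry no molecular identifiers, so intervals cover counting error only. A pseudocount of 1, a minimum FPKM of 1 and a log2 difference over 1 defined a call, with no test, since there is 1 library per condition. Adding 1 understates the difference of low genes. Alternatives were a pseudocount of 0.1, minimum FPKM of 5 or none, scaling to the same sum or by median ratio, a fold of 4, other in vivo libraries, the TE libraries, and a 2-library exact binomial test of the fragments, with depth from a trimmed mean and a Benjamini-Hochberg adjusted p limit of 0.005, which compares libraries and not conditions. GC centring and the IV-D morula reference were chosen after seeing the data. In simulated IT libraries, 93.5% of the 200 genes given a 4-fold change were called in both clones, against 0.0151% of 6634 genes without one. This checks the calling step alone and gives no error rate for the data. Variation between embryos, cut pieces and libraries cannot be estimated from 1 library per condition.

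GC content, length, positions and promoters came from RefSeq annotation of Sscrofa11.1, in which 6974 of 7371 symbols had a position, 65 through an older symbol or synonym. The members, 31 gene lists, markers and tests were chosen with earlier results of these data known. The named genes are the 12 largest smaller-of-2 differences in each direction with FPKM of at least 10, up to 4 from each list (2 of highest FPKM where fewer than 2 were past the fold), lineage markers, factors named by the study, up to 5 opposite genes and up to 3 genes without a symbol in each direction. Of these, GATA4 and PGR, which were not compared in both clones, and a further gene are not reported here. Others named are marked as chosen afterwards or are the remaining members of a list. Values were computed in python 3.11.15 with pandas 2.3.3, numpy 2.4.6 and scipy 1.17.1, and plotted with matplotlib 3.10.9.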

Additional observations from a re-analysis of the deposited data

Results flagged for a closer look

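In 6 genes NT-D IT and NT-LW IT were past the fold from IV-D IT in opposite directions. With 1 library per group the difference between the clone groups was not tested. LDHB, the heart-type subunit of lactate dehydrogenase, had a log2 difference of -1.26 in NT-D and 3.43 in NT-LW, from FPKM values of 51.0 in IV-D IT, 20.7 in NT-D IT and 558 in NT-LW IT, and in TE it was at 20.2 (NT-D) and 547 (NT-LW) against 19.9 in IV-D, so that NT-LW alone was apart there. ENSSSCG00000035894 differed by 1.77 in NT-D and -6.90 in NT-LW, with FPKM of 141 in IV-D IT, 483 in NT-D IT and 0.187 in NT-LW IT, and with 0.455 in NT-LW morulae against 197 in NT-D morulae. ENSSSCG00000000296 differed by 1.67 and -1.79, ENSSSCG00000033362 by 1.41 and -1.74, FCGR1A, an immunoglobulin receptor, by 1.24 and -1.74, and CNBD2, a protein with a cyclic nucleotide-binding domain, by 1.21 and -1.60, in NT-D and NT-LW. In LDHB and ENSSSCG00000035894 the NT-LW library lay past the fold from both other groups in morula, IT and TE.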

How the results depend on the processing

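Of 1171 members (429 higher, 742 lower), a pseudocount of 0.1 gave 1570 genes, a minimum FPKM of 5 gave 960, no minimum 1171, the same sum 1180 and median-ratio scaling 1138, and 0 named genes turned direction under any of these. The median difference of all genes compared, -0.17 (NT-D) and -0.11 (NT-LW), was -0.24 and -0.19 with the same sum and -0.01 and -0.01 with median-ratio scaling. A fold of 4 left 204 (80 higher, 124 lower). The exact binomial test on fragments called 1773 (826 and 947), of which 428 and 685 were members. GC centring, chosen after seeing the data, gave 341 lower genes on 5779, where 601 had been called. With IV-D TE as the reference 390 genes were called (238 and 152), and with the TE libraries in place of IT 289 (111 and 178). With IV-D morulae, added later, 644 were higher and 1100 lower. Leaving out a library was not run, since no group has a second one among the 23 libraries. The study added replicates for NT-D and IV-D blastocysts, which were not analysed here. No paired analysis was possible because each condition has 1 library.

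Named genes whose smaller difference changed sign are given with that difference. With IV-D TE as the reference these were 38 genes, now above 0 for BAD 5.30, BATF3 1.21, BCL3 0.81, CCNE1 0.72, DLX5 0.84, ELF3 0.22, ELOVL6 0.10, ENSSSCG00000029683 1.65, ENSSSCG00000034113 4.37, FOS 0.26, FZD3 0.64, GSC 2.40, ID2 0.58, KLF17 0.92, KLF4 1.15, NDUFA10 0.11, PDGFRA 1.33, RUNX1T1 2.04, SNAI1 1.64, SOCS1 1.37, SPIC 5.45, SULT1E1 5.27, WWTR1 0.96, ZFP36L2 1.37, and below 0 for ASNS -0.36, CYP51A1 -0.46, GDF15 -0.51, HSD17B11 -0.13, LAMC1 -0.46, LGALS3 -0.68, MAP2K1 -0.41, MGST1 -0.55, PSPH -0.0727, SAL1 -0.29, SLC7A11 -0.99, SMAD5 -0.0637, SQLE -0.37, WNT6 -0.44. In the TE libraries they were 26, above 0 for BAD 0.80, BAMBI 1.01, DLX5 0.70, ELF3 0.29, ENSSSCG00000034113 2.18, KLF17 0.26, NDUFA10 0.0491, SNAI1 0.69, SOCS1 1.0, SPIC 1.49, SULT1E1 1.08, UQCRC1 0.0201, WWTR1 0.0785, and below 0 for AIF1 -0.34, APOC3 -3.14, ASNS -0.0831, CDKN1A -0.18, GDF15 -0.031, LAMC1 -0.0949, LGALS3 -0.0189, MAP2K1 -0.39, MGST1 -0.44, RPL23A -0.93, RPL36A -0.89, SAL1 -0.22, SLC7A11 -0.36. With the morula reference they were 3, above 0 for ELF3 0.28, ID2 0.0059, and below 0 for SAL1 -0.10. These settings replace libraries, and the cause was not tested. Depth limits low genes: 22 higher and 54 lower members had under 10 fragments in an IT library, 7 higher members had 0 in IV-D IT, and a count of 0 allows up to 3 fragments.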

Other observations

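The following members belong to none of the gene lists and were picked after their values were seen. Regulators of growth arrest and early response other than those above were lower in both clones: GADD45B was at 43.9 in IV-D IT, 3.63 in NT-D IT and 4.75 in NT-LW IT, IER2, an early response gene, at 41.9 in IV-D IT, 2.98 in NT-D IT and 7.54 in NT-LW IT, and SERTAD1, a regulator of CDK4, at 52.4 in IV-D IT, 8.92 in NT-D IT and 7.41 in NT-LW IT. Cochaperones outside the heat shock list were lower as well, with STIP1, which links HSP70 to HSP90, at 208 in IV-D IT, 36.9 in NT-D IT and 49.6 in NT-LW IT, and FKBP4, a partner of HSP90, at 149.5 in IV-D IT, 25.8 in NT-D IT and 36.8 in NT-LW IT. CXCR4, a chemokine receptor, was at 17.0 in IV-D IT, 3.28 in NT-D IT and 2.34 in NT-LW IT, and CKB, the brain-type creatine kinase, at 2519 in IV-D IT, 311 in NT-D IT and 307 in NT-LW IT. On the higher side KITLG, the ligand of the KIT receptor, was at 1.01 in IV-D IT, 29.1 in NT-D IT and 12.8 in NT-LW IT, NPC1, which moves cholesterol out of lysosomes, at 9.86 in IV-D IT, 62.7 in NT-D IT and 53.7 in NT-LW IT, and S100A11, a calcium-binding protein, at 37.7 in IV-D IT, 660.0 in NT-D IT and 226 in NT-LW IT. PYCR1, of proline synthesis, was at 0.768 in IV-D IT, 9.06 in NT-D IT and 9.67 in NT-LW IT, and MDH1, the cytosolic malate dehydrogenase, at 69.2 in IV-D IT, 432 in NT-D IT and 493 in NT-LW IT.

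IV-D TE held 6.14 of GADD45B, 58.0 of STIP1, 0.0609 of CXCR4, 6.26 of KITLG, 31.8 of NPC1 and 10.2 of PYCR1.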
